A study of Mus musculus with 8 samples.

Results

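The signalling chain that leads from RANK, a receptor of the TNF family, to NF-kB was described here through 10 genes in sorted thymic epithelial cells (TECs) of mouse embryos. The 10 genes, chosen by name out of the 55450 genes in the deposited table, encode the 5 NF-kB subunits (*Rela*, *Relb*, *Rel*, *Nfkb1*, *Nfkb2*), the adaptors *Traf1* and *Traf6*, the kinase *Map3k14* (also called NIK), the inhibitor *Nfkbia* (IkB-alpha), and the ubiquitin-editing enzyme *Tnfaip3* (A20). All 10 passed the filter on low counts. CD45-EpCAM+ TECs were isolated at embryonic day 17 from embryos that carried 2 reporters, a tdTomato cassette knocked into the *Ccl21a* gene and a Venus transgene that reports *Tnfrsf11a*, the gene for RANK. The sort gave CCL21+RANK- TECs (tdTomato+Venus-, 3 libraries), CCL21-RANK+ TECs (tdTomato-Venus+, 3 libraries), and CCL21-RANK- TECs (tdTomato-Venus-, 2 libraries), labelled Ccl21a+Rank-, Ccl21a-Rank+, and Ccl21a-Rank-. They are called CCL21+ TECs, RANK+ TECs, and double-negative TECs below. Every group therefore came from embryos with both reporters, no group was treated, and none lacked a gene by design apart from the *Ccl21a* copy that carries the reporter. Whether a library pooled several embryos is not stated in the labels, so the p-values below measure only the spread between these libraries.

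NF-kB acts as pairs of Rel family proteins. In the classical arm, TRAF6 and the IkB kinases lead to the breakdown of IkB-alpha, which frees pairs such as RelA-p50 and c-Rel-p50, where p50 is made from the *Nfkb1* product. In the alternative arm, NIK accumulates and drives the processing of the *Nfkb2* product p100 to p52, the partner of RelB. *Nfkbia*, *Tnfaip3*, *Nfkb2*, *Relb*, and *Traf1* are themselves known NF-kB targets, and both RelB and NIK are required for medullary TECs in mice. Messenger RNA does not report processing, breakdown, or nuclear entry of these proteins, and only transcript levels are given here.

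The libraries held 59677315, 46003128, and 55116911 counts in CCL21+ TECs, 57286762, 50146730, and 42751839 in RANK+ TECs, and 67451440 and 71625282 in double-negative TECs. Levels are given as RPKM, the reads of a gene scaled to its exon length and to the library total, with the SD over libraries. A difference was called when the adjusted p-value from edgeR's quasi-likelihood test was under 0.05, the fold change was over 1.5, and the mean was over 1 RPKM in the higher group. *Tnfrsf11a* was at 104 RPKM on average in RANK+ TECs, 9.50 in CCL21+ TECs, and 2.44 in double-negative TECs, the latter 2 both sorted as negative for its reporter. *Ccl21a* was at 404 RPKM on average in CCL21+ TECs, but also at 109 RPKM in RANK+ TECs, which were sorted as negative for its reporter, and at 7.88 RPKM in double-negative TECs. The epithelial markers *Epcam*, *Krt8*, *Krt18*, and *Foxn1* were at 49.5 RPKM or more in each of the 8 libraries, and *Aire*, a marker of mature medullary TECs, was between 94.1 and 131 RPKM in RANK+ TECs and at most 0.810 RPKM in the other libraries. The epithelial genes themselves differed between the groups. The 12 TEC markers, which include *Ccl21a*, *Tnfrsf11a*, and *Aire*, were led by *Krt8* in RANK+ TECs and by *Krt18* in the other groups. They summed to 2225, 2344, and 1936 RPKM in RANK+ TECs, 6586, 6249, and 7071 RPKM in CCL21+ TECs, and 5365 and 5702 RPKM in double-negative TECs. The cortical TEC genes *Psmb11* and *Prss16* were 13.7-fold and 13.6-fold lower in RANK+ than in CCL21+ TECs, and *Pax1* and *Krt18* were 5.70-fold and 5.44-fold lower, whereas *Epcam* was 2.05-fold higher. None of these 5 genes was called between CCL21+ and double-negative TECs. *Krt5* and *Krt14*, which the paper counts among medullary TEC traits, were called higher in CCL21+ than in double-negative TECs. Their means were 953 against 140 RPKM and 52.7 against 7.89 RPKM. The part of these shifts among epithelial cells in the differences below was not tested.

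Markers of other cells differed between the groups, and 2 libraries stood apart in them. Parathyroid transcripts, led by *Chga* and *Pth*, summed to 7122, 1750, and 1955 RPKM over 4 markers in CCL21+ replicates 1, 2, and 3, against 11.1 to 24.9 RPKM in the other 5 libraries. Macrophage and dendritic cell transcripts, led by *Lyz2*, summed over 8 markers to 69.0, 20.7, and 24.2 RPKM in RANK+ replicates 1, 2, and 3, against at most 1.09 RPKM elsewhere. The 5 B cell markers, led by *Igkc*, summed to 34.99, 21.3, and 32.6 RPKM in RANK+ TECs and to at most 0.763 RPKM elsewhere. The 5 mesenchyme markers, led by *Col1a1*, summed to 34.9, 13.6, and 22.2 RPKM in RANK+ TECs and to at most 2.97 RPKM elsewhere. Of these 5, *Pdgfra* and *Twist1* went the other way against CCL21+ TECs, with no overlap. Their means were 0.068 against 0.196 RPKM and 0.069 against 0.953 RPKM. *Twist1* was also lower than in double-negative TECs (0.395 RPKM). Endothelial markers, led by *Tek*, reached 4.08 RPKM, and thymocyte markers, led by *Rag1*, were between 10.1 and 22.5 RPKM in RANK+ TECs, 5.37 and 12.6 in CCL21+ TECs, and 3.45 and 3.91 in double-negative TECs. The defining marker *Ptprc* (CD45) was at most 0.576 RPKM in any library. In bulk RNA, fewer cells of a type and less RNA per cell cannot be told apart. Nor can transcripts of other cells be told apart from the same transcripts made by TECs. The paper describes ectopic gene transcription in medullary TECs that express *Aire*, which was high in RANK+ TECs. The part of either source in the differences below was not tested. Calls that were lost without CCL21+ replicate 1 or without RANK+ replicate 1 are named beside the results.

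Among the 5 subunits, *Nfkb2* had the highest level per length in every library and *Rel* the lowest. *Nfkb2* was at 148, 113, and 119 RPKM in RANK+ TECs, 74.2, 72.1, and 79.3 RPKM in CCL21+ TECs, and 50.4 and 59.4 RPKM in double-negative TECs. The 3 groups did not overlap, and RANK+ replicate 1 was the highest library. *Nfkb2* was 1.54-fold higher in RANK+ than in CCL21+ TECs (log2 fold change 0.63, SE 0.11, adjusted p = 0.000855 by edgeR) and 2.12-fold higher than in double-negative TECs (log2 fold change 1.08, SE 0.12, adjusted p = 7.63e-05 by edgeR). The first of these lay just past the 1.5-fold limit, and without RANK+ replicate 1 its log2 fold change was 0.55 and the call was lost. In the mm10 genome *Nfkb2* lies at chr19:46304320-46312385, where it overlaps *AC114539.1* and *Psd* on the opposite strand, and whether the counting used strand is not stated in the sources used here.

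*Relb*, which encodes the partner of p52 (chr7:19606217-19629438), followed the same order. It was at 55.0, 51.8, and 50.6 RPKM in RANK+ TECs, 36.0, 34.9, and 40.1 RPKM in CCL21+ TECs, and 26.3 and 28.9 RPKM in double-negative TECs, again with no overlap between groups. The level in RANK+ TECs was 1.75-fold that in double-negative TECs and was called higher (log2 fold change 0.81, SE 0.10, adjusted p = 0.000106 by edgeR). Against CCL21+ TECs the adjusted p passed (0.00368 by edgeR), but the fold change of 1.31 stayed under the limit (log2 fold change 0.39, 95% interval 0.20 to 0.58).

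*Nfkb1*, the gene of p105 and its product p50 (chr3:135584655-135691547), had the opposite order. Its levels were 16.1, 13.5, and 12.5 RPKM in RANK+ TECs, 26.7, 25.3, and 26.1 RPKM in CCL21+ TECs, and 28.3 and 34.8 RPKM in double-negative TECs. All 3 RANK+ libraries were below the other 5. *Nfkb1* was 2.02-fold lower in RANK+ than in CCL21+ TECs (log2 fold change -1.01, SE 0.11, adjusted p = 4.76e-05 by edgeR) and 2.43-fold lower than in double-negative TECs (log2 fold change -1.28, SE 0.12, adjusted p = 2.19e-05 by edgeR). *Gm43430* overlaps *Nfkb1* on the same strand, and its reads cannot be fully told apart from those of *Nfkb1*.

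*Rela* and *Rel* encode the subunits that carry the transactivation domain of the classical pairs. *Rela* (chr19:5637483-5648130) was at 18.2, 16.97, and 17.2 RPKM in RANK+ TECs, 18.8, 17.6, and 20.5 RPKM in CCL21+ TECs, and 19.3 and 22.4 RPKM in double-negative TECs. It was not called in any comparison, with a log2 fold change of -0.24 between RANK+ and CCL21+ TECs (95% interval -0.42 to -0.05, adjusted p = 0.0339 by edgeR) and of -0.37 against double-negative TECs (95% interval -0.57 to -0.17, adjusted p = 0.00790 by edgeR). Both intervals lay between no difference and a 1.5-fold decrease.

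*Rel*, which encodes c-Rel (chr11:23736847-23770970), was at 5.22, 3.92, and 4.10 RPKM in RANK+ TECs, 5.45, 6.12, and 7.24 RPKM in CCL21+ TECs, and 5.33 and 5.11 RPKM in double-negative TECs. The 3 RANK+ libraries were below the CCL21+ libraries, with a gap of under 1 RPKM between the nearest ones, and overlapped the double-negative libraries. *Rel* was called lower against CCL21+ TECs (log2 fold change -0.63, SE 0.13, adjusted p = 0.00219 by edgeR), a call that was lost in 10 of the 18 alternative analyses, in which the difference kept its direction. Against double-negative TECs the log2 fold change was -0.37 (95% interval -0.68 to -0.06, adjusted p = 0.0488 by edgeR) and did not reach the limit.

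**Figure D1:**
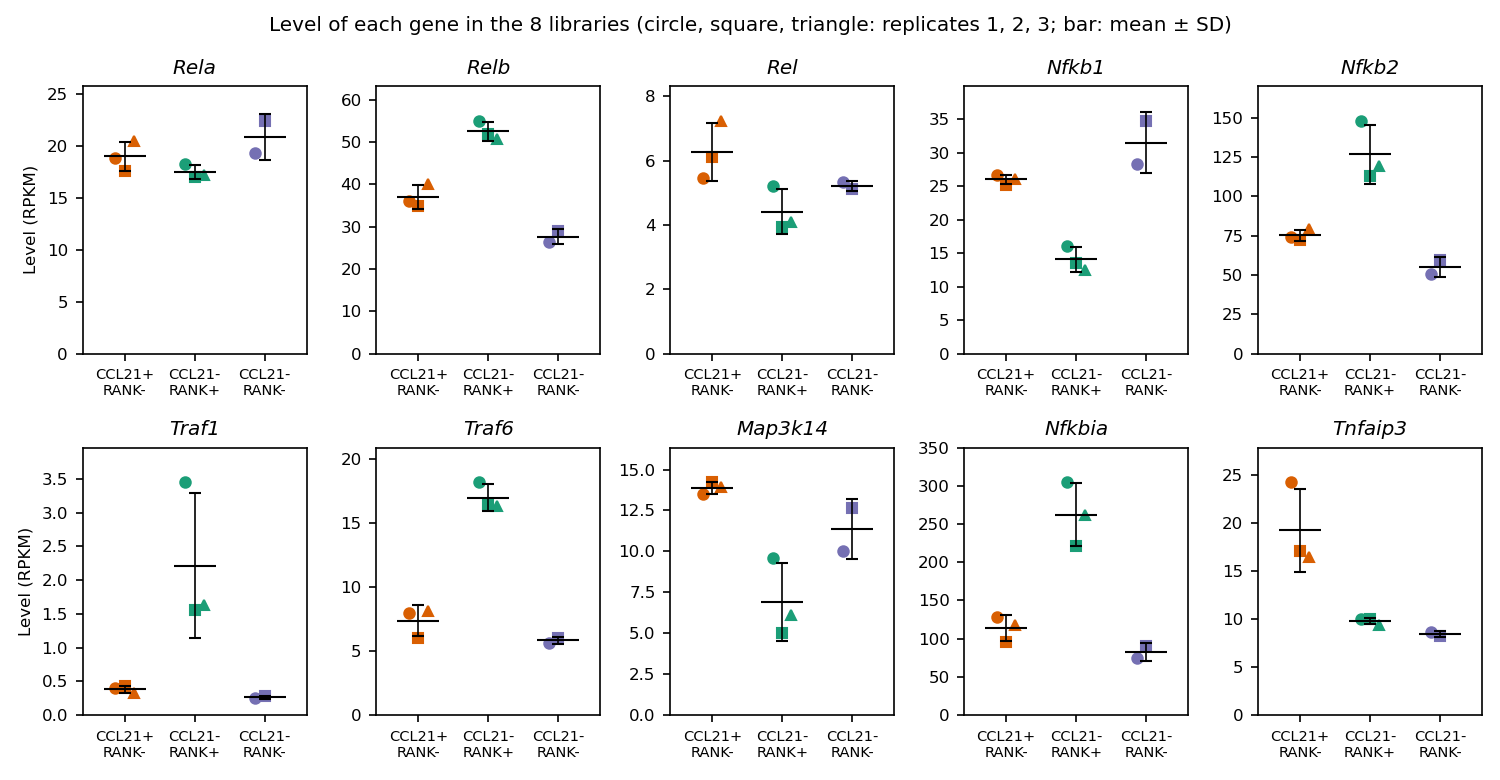
Level of each of the 10 genes in RPKM (vertical axes, from 0) in the 3 sorted groups, with 1 point per library (circle, square, and triangle for replicates 1, 2, and 3) and bars for the mean and SD. *Relb*, *Nfkb2*, *Traf1*, *Traf6*, and *Nfkbia* were highest in RANK+ TECs, *Nfkb1* and *Map3k14* were lowest there, and *Tnfaip3* was highest in CCL21+ TECs.

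The make-up of the subunit transcripts therefore differed between the groups. *Nfkb2* gave 58.7% ± 2.195 of the summed RPKM of the 5 subunits in RANK+ TECs (SD, n = 3), 46.0% ± 0.225 in CCL21+ TECs (n = 3), and 39.2% ± 0.409 in double-negative TECs (n = 2). The share of *Nfkb1* was 6.53% ± 0.356, 15.9% ± 0.776, and 22.5% ± 0.903 in the same order of groups. These shares did not overlap between groups, whereas the share of *Relb*, at 24.5% ± 1.72, 22.6% ± 0.459, and 19.7% ± 0.812, did between RANK+ and CCL21+ TECs. The sum itself was 215 ± 23.9 RPKM in RANK+ TECs, 163 ± 8.79 RPKM in CCL21+ TECs, and 140 ± 14.8 RPKM in double-negative TECs.

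Ratios taken within a library do not depend on its total. The ratio of *Nfkb2* to *Nfkb1* was 9.17, 8.32, and 9.56 in RANK+ TECs, 2.78, 2.86, and 3.04 in CCL21+ TECs, and 1.78 and 1.71 in double-negative TECs. The ratio of *Relb* to *Rela* was 3.01, 3.05, and 2.94 in RANK+ TECs, 1.91, 1.98, and 1.96 in CCL21+ TECs, and 1.37 and 1.29 in double-negative TECs. Neither ratio overlapped between any 2 groups, and CCL21+ TECs lay between the other groups in both. Other subunit ratios were less separated. The ratio of *Rel* to *Rela* was highest in CCL21+ TECs, at 0.330 on average against 0.252 in RANK+ and 0.253 in double-negative TECs. That of *Relb* to *Rel* ran from 5.53 to 6.60 in CCL21+ TECs and overlapped the 4.94 to 5.64 of double-negative TECs. The ratios are given as a description and were not tested.

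**Figure D2:**
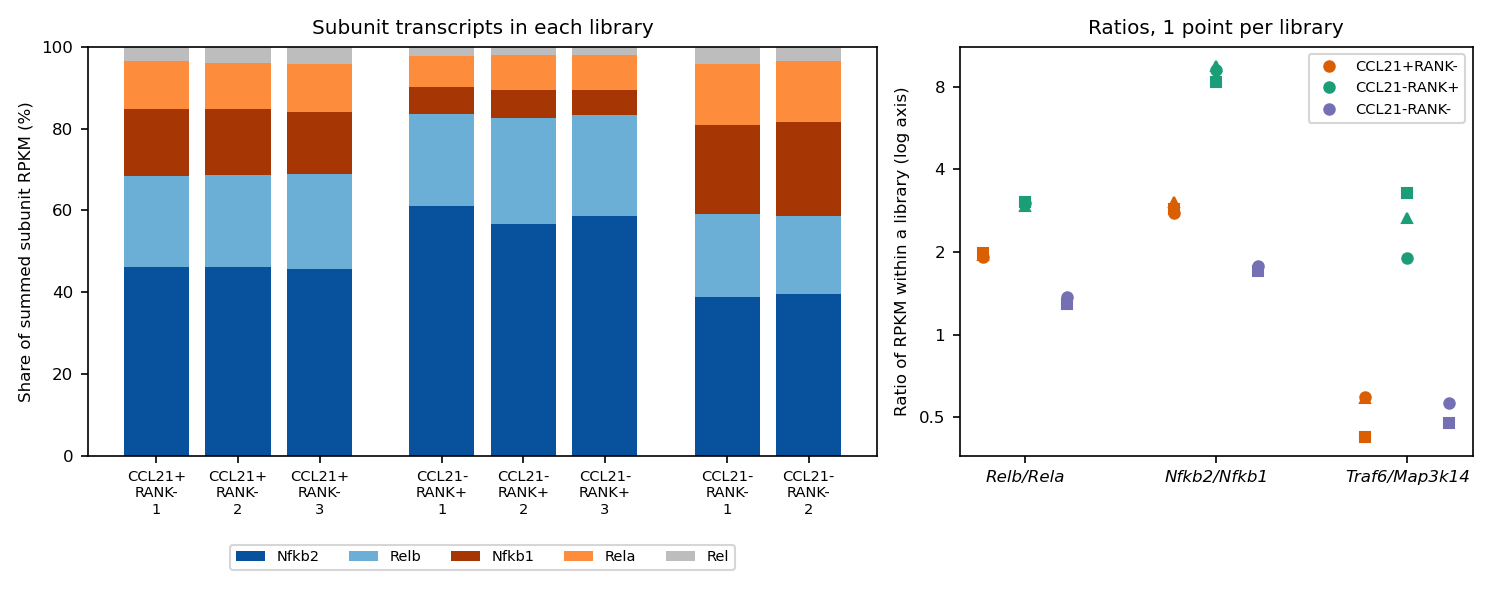
Left, share of each subunit in the summed RPKM of the 5 subunits (vertical axis, percent) in each of the 8 libraries. Right, ratios of RPKM within a library on a log axis, with 1 point per library (circle, square, and triangle for replicates 1, 2, and 3). The ratio of *Nfkb2* to *Nfkb1* was 8.32 or more in RANK+ TECs and 3.04 or less in all other libraries.

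Upstream of the subunits, both adaptors were higher in RANK+ TECs. *Traf6*, the TRAF protein that RANK uses to reach the IkB kinases (chr2:101678429-101701669), was at 18.2, 16.4, and 16.3 RPKM in RANK+ TECs, 7.99, 6.01, and 8.14 RPKM in CCL21+ TECs, and 5.65 and 6.04 RPKM in double-negative TECs. Each RANK+ library was above every other library. The difference was 2.13-fold against CCL21+ TECs (log2 fold change 1.09, SE 0.10, adjusted p = 1.66e-05 by edgeR) and 2.67-fold against double-negative TECs (log2 fold change 1.42, SE 0.12, adjusted p = 1.00e-05 by edgeR), and both calls were made in all 18 alternative analyses.

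*Traf1*, an adaptor without the RING domain of other TRAF proteins (chr2:34941750-34961772), was the least abundant of the 10 genes. It was at 3.45, 1.55, and 1.64 RPKM in RANK+ TECs, 0.393, 0.426, and 0.321 RPKM in CCL21+ TECs, and 0.249 and 0.275 RPKM in double-negative TECs. The RANK+ libraries did not overlap the others, and RANK+ replicate 1, the library with the highest sum of macrophage and dendritic cell markers, was highest. *Traf1* had the largest fold changes of the 10 genes, 5.24-fold against CCL21+ TECs (log2 fold change 2.39, SE 0.31, adjusted p = 0.000140 by edgeR) and 7.67-fold against double-negative TECs (log2 fold change 2.94, SE 0.37, adjusted p = 0.000143 by edgeR). Without RANK+ replicate 1 the log2 fold changes were 1.98 and 2.54, and both were still called.

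*Map3k14*, the gene of the kinase of the alternative arm (chr11:103219762-103267472), was lower in RANK+ TECs. It was at 9.57, 5.00, and 6.12 RPKM in RANK+ TECs, 13.5, 14.2, and 13.9 RPKM in CCL21+ TECs, and 10.05 and 12.7 RPKM in double-negative TECs. RANK+ replicate 1 came close to the lower double-negative library but did not pass it. The log2 fold change was -1.15 against CCL21+ TECs (SE 0.18, adjusted p = 0.000578 by edgeR) and -0.85 against double-negative TECs (SE 0.20, adjusted p = 0.00640 by edgeR). Without double-negative replicate 2 the latter was -0.75, with an adjusted p of 0.0546 by edgeR. Reads of *1700028N14Rik*, which overlaps *Map3k14* on the same strand, cannot be fully told apart from its own. Within a library, the ratio of *Traf6* to *Map3k14* was 2.62 ± 0.692 in RANK+ TECs (SD, n = 3), against 0.533 ± 0.0954 in CCL21+ TECs (n = 3) and 0.520 ± 0.0598 in double-negative TECs (n = 2).

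The 2 feedback genes had different patterns. *Nfkbia*, which encodes the inhibitor that NF-kB restores after activation (chr12:55489410-55492647), was the most abundant of the 10 genes in every library, with 304, 222, and 261 RPKM in RANK+ TECs, 128, 94.9, and 118 RPKM in CCL21+ TECs, and 74.4 and 90.4 RPKM in double-negative TECs. The 3 groups did not overlap. *Nfkbia* was 2.12-fold higher in RANK+ than in CCL21+ TECs (log2 fold change 1.08, SE 0.12, adjusted p = 6.83e-05 by edgeR) and 2.93-fold higher than in double-negative TECs (log2 fold change 1.55, SE 0.15, adjusted p = 2.16e-05 by edgeR). Relative to *Rela*, it was at 15.0 ± 1.83 in RANK+ TECs, 5.99 ± 0.725 in CCL21+ TECs, and 3.95 ± 0.123 in double-negative TECs.

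*Tnfaip3*, whose product A20 removes the ubiquitin chains that TRAF6 and its partners build (chr10:19000910-19015657), was at 24.2, 17.02, and 16.4 RPKM in CCL21+ TECs, 9.97, 9.998, and 9.37 RPKM in RANK+ TECs, and 8.63 and 8.18 RPKM in double-negative TECs. It was thus high in CCL21+ TECs and not in RANK+ TECs, and its highest library was the one with the most parathyroid transcripts. *Tnfaip3* was 2.14-fold lower in RANK+ than in CCL21+ TECs (log2 fold change -1.10, SE 0.16, adjusted p = 0.000316 by edgeR). Without CCL21+ replicate 1 the log2 fold change was -0.90, with an adjusted p of 0.000412 by edgeR. Between RANK+ and double-negative TECs the log2 fold change was 0.10, with a 95% interval of -0.30 to 0.49 (adjusted p = 0.685 by edgeR). The ratio of *Nfkbia* to *Tnfaip3* was 26.9 ± 4.28 in RANK+ TECs, 6.02 ± 1.02 in CCL21+ TECs, and 9.84 ± 1.71 in double-negative TECs.

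Counted together, 8 of the 10 genes were called between RANK+ and CCL21+ TECs, with *Nfkb2*, *Nfkbia*, *Traf1*, and *Traf6* higher in RANK+ TECs and *Rel*, *Nfkb1*, *Map3k14*, and *Tnfaip3* lower. Among all 21451 genes tested, 30.8% were called in this comparison, 15.4% in each direction. The median log2 fold change of the 10 genes was 0.08, against 0.11 over all genes tested. Without RANK+ replicate 1, the log2 fold changes against CCL21+ TECs were 1.01 for *Nfkbia*, 1.08 for *Traf6*, -1.07 for *Nfkb1*, and -1.40 for *Map3k14*, all still called, whereas *Nfkb2* was not, which left 7 of the 10 genes called, 3 higher and 4 lower. Between RANK+ and double-negative TECs, 7 of 10 were called, 5 higher (the same 4 and *Relb*) and 2 lower (*Nfkb1* and *Map3k14*), against 29.5% of all genes (14.4% higher and 15.1% lower). The median of the 10 genes in the latter comparison was 0.45, against 0.06 over all genes tested. The comparisons share the RANK+ libraries and so are not independent of each other. By the adjusted p alone, all 10 genes passed between RANK+ and CCL21+ TECs and 9 of 10 between RANK+ and double-negative TECs, against 53.7% and 49.0% of all genes.

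Groups whose libraries did not overlap in RPKM were common in these data. Between RANK+ and CCL21+ TECs, 5 of the 10 genes were higher in every RANK+ library and 4 were lower, 9 in all, with *Rela* overlapping, against 59.8% of all genes (36.9% higher and 22.8% lower). Between RANK+ and double-negative TECs, 6 were higher and 3 lower with no overlap, against 65.7% of all genes (38.8% higher and 26.9% lower). The 6 include *Tnfaip3*, whose log2 fold change was 0.10, and on the scale of the test, with library totals normalized by edgeR's TMM method, its groups overlapped while those of *Rel* did not, which gave 5 higher and 4 lower. On the TMM scale *Rela* did not overlap between RANK+ and CCL21+ TECs either, and was lower. In RPKM, the share of the 10 genes without overlap was thus less far from that of all genes than the share called.

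Between CCL21+ and double-negative TECs, 1 of the 10 genes, *Tnfaip3*, was called, against 8.02% of all genes (4.35% higher and 3.66% lower in CCL21+ TECs). In RPKM, the libraries of 7 genes were higher without overlap in CCL21+ TECs and those of 1 were lower, against 38.9% of all genes (18.4% higher and 20.5% lower). On the TMM scale *Rela* was lower without overlap too, and *Traf6* took the place of *Rel* among the higher genes. By the adjusted p alone, 3 of 10 passed, against 11.4%. *Tnfaip3* was 2.29-fold higher in CCL21+ than in double-negative TECs (log2 fold change 1.19, SE 0.18, adjusted p = 0.00319 by edgeR), and without CCL21+ replicate 1 the log2 fold change was 0.998 and still called. Without double-negative replicate 2 it was 1.08 with an adjusted p of 0.0512 by edgeR. *Relb* and *Nfkb2* were higher by less than the limit, with log2 fold changes of 0.42 (95% interval 0.21 to 0.64, adjusted p = 0.0208 by edgeR) and 0.46 (95% interval 0.19 to 0.73, adjusted p = 0.0382 by edgeR). For the other 7 genes the adjusted p-values from edgeR ran from 0.0613 for *Nfkbia* to 0.417 for *Rela*. The widest of their 95% intervals was that of *Traf1*, at -0.21 to 1.31 on the log2 scale.

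**Figure D3:**
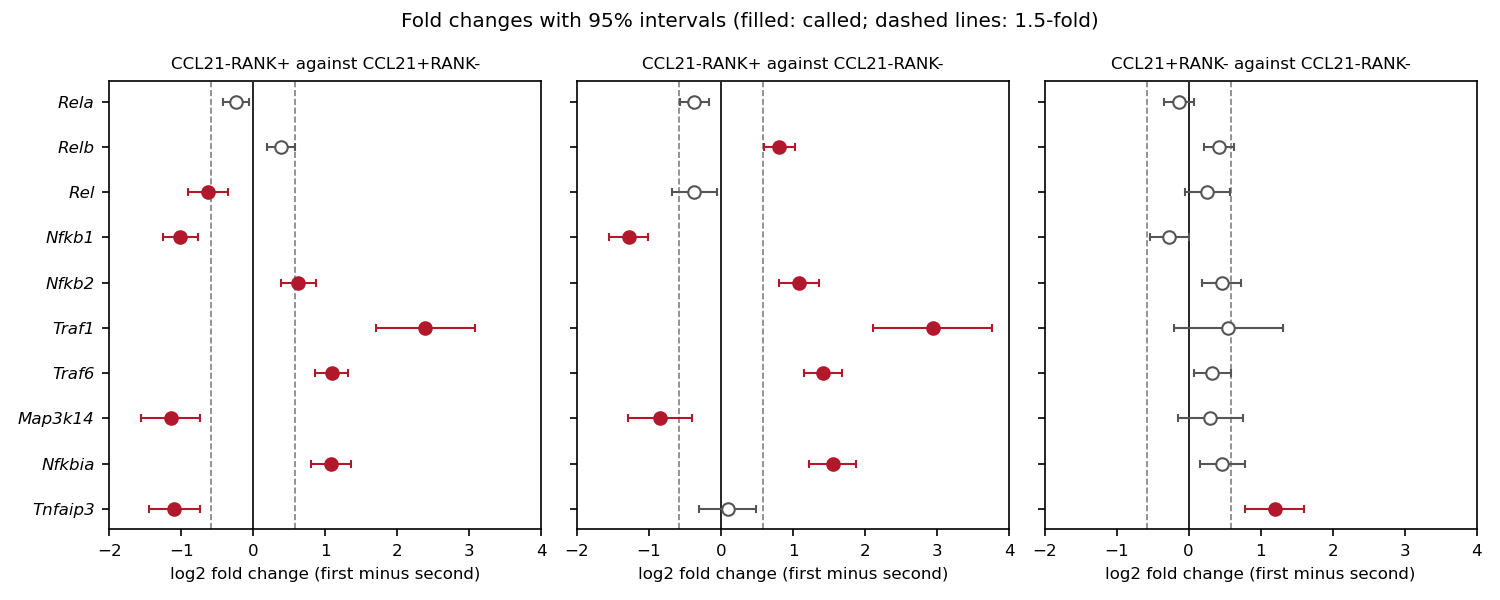
Log2 fold change of each gene (horizontal axis, first group minus second) with its 95% interval in the 3 comparisons, from edgeR. Filled points were called, dashed lines mark a 1.5-fold difference. In the left and middle panels 8 and 7 genes were called, with *Traf1* farthest to the right, and in the right panel *Tnfaip3* was.

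Of the 10 genes, 5 were called higher in RANK+ than in double-negative TECs, 4 of them also against CCL21+ TECs, and several are known NF-kB targets. The bases around the start sites of the 10 genes were therefore searched for the kB motif on both strands. The motif was spelled as GGG, any 2 bases, and TTTCC. RefSeq windows of GRCm38.p6, from 250 bases before to 50 bases after a start site, were at hand for 8 of the 10 genes, not for *Relb* and *Nfkb1*. A match was found for *Nfkb2*, *Nfkbia*, *Rel*, and *Tnfaip3*, that is 4 of 8, whereas 1.89% of 27025 genes with such a window had one. A looser motif, spelled as GGG, any 5 bases, and CC, which contains the first, matched in 7 of 8, all except *Traf1*, and in 53.5% of all genes. The 3 short sequences below show the matches (capitals) with 10 bases on each side, written along the strand of the gene (a match on the other strand reads GGAAA, any 2 bases, and CCC), at chr19:46304716-46304745 (plus strand), chr11:23771041-23771070 (minus strand), and chr10:19015403-19015432 (minus strand). The *Nfkbia* sequence is the whole stretch of 250 bases before its start, chr12:55492648-55492897 (minus strand), with the match in capitals. The *Traf1* stretch of the same length, chr2:34961773-34962022 (minus strand), is shown because this gene had the largest fold changes and no match to either motif.
*Nfkb2*: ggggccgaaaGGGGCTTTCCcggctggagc
*Rel*: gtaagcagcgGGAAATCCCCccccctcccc
*Tnfaip3*: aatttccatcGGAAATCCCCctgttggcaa
*Nfkbia*: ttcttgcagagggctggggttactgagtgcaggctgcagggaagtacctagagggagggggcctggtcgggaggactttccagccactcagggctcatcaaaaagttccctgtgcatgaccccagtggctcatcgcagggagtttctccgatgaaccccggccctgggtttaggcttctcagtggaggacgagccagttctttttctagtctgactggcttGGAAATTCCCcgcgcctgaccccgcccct
*Traf1*: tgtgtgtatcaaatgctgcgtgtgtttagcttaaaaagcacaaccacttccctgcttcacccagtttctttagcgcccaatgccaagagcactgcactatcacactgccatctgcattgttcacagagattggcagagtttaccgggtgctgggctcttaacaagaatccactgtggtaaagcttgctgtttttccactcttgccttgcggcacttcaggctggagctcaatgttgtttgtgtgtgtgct

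The match ends 20 bases before the start site in *Nfkbia*, 82 bases before it in *Rel*, and 3 bases before 1 of the 2 start sites that RefSeq gave for *Tnfaip3*. RefSeq gave 3 start sites for *Nfkb2*, and the match printed above ends 2 bases before the first of them. A second match of *Nfkb2*, at chr19:46305705-46305714, covers bases 11 to 20 counted from the next start site and also falls in the window of the third. The genes with a match did not share a direction. *Nfkb2* and *Nfkbia* were higher in RANK+ than in CCL21+ TECs, whereas *Rel* and *Tnfaip3* were lower. Binding was not measured, and a match describes the letters of the window.

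The other genes of the pathway were followed in 7 lists with 63 genes, of which 62 were tested (*Il6* was not). Between RANK+ and CCL21+ TECs, 20 were called higher and 15 lower in RANK+ TECs, 35 in all, against 30.8% of all genes (15.4% in each direction), with a median log2 fold change of 0.11, the same as over all genes. Without RANK+ replicate 1, 16 were higher and 15 lower, and the calls of *Lta*, *Tnip2*, *Bcl2l1*, and *Ccl5* were lost. Between RANK+ and double-negative TECs, 24 were higher and 9 lower, against 29.5% of all genes (14.4% higher and 15.1% lower), with a median of 0.50. Without RANK+ replicate 1, the calls of *Lta* and *Bcl2l1* were lost here too, and *Otud7b* was called lower in addition. Between CCL21+ and double-negative TECs, 9 were higher and 0 lower by the edgeR calls, against 8.02% of all genes (4.35% higher and 3.66% lower), with a median of 0.29 against 0 over all genes. Without CCL21+ replicate 1, the call of *Tnip2* was lost in this comparison. At an adjusted p from edgeR under 0.05 alone, 15 of the 62 passed in that comparison, all 15 higher in CCL21+ TECs, against 11.4% of all genes. These counts include *Tnfrsf11a* and *Ccl21a*, whose reporters set the sort gates, so that their directions between gated groups were fixed by the sort. Without both, 60 genes were left, of which 19 were called higher and 14 lower in RANK+ than in CCL21+ TECs, 22 higher and 9 lower in RANK+ than in double-negative TECs, and 7 higher in CCL21+ than in double-negative TECs (11.7%, against the 8.02% of all genes).

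Of 10 receptors and ligands, 6 were called higher and 2 lower in RANK+ than in CCL21+ TECs, against 15.4% of all genes in each direction. *Tnfrsf11a*, the gene of the sorting reporter, is 1 of the 6. *Tnfrsf11b*, which encodes the decoy receptor osteoprotegerin that binds RANK ligand, was at 62.2, 38.0, and 37.7 RPKM in RANK+ TECs and at most 0.216 RPKM in the other libraries (log2 fold change 8.53 against CCL21+ TECs, SE 0.34, adjusted p = 2.25e-07 by edgeR). *Ltb*, which encodes a lymphotoxin subunit, was at 28.5, 20.5, and 19.8 RPKM in RANK+ TECs, against 0.455 RPKM or less elsewhere. *Lta*, its partner, reached 3.04, 0.750, and 1.02 RPKM in RANK+ TECs and was at 0 in 4 of the other 5 libraries. Its mean in RANK+ TECs without replicate 1 was 0.882 RPKM, under the 1 RPKM needed for a call. The 2 genes called lower were both signalling receptors, although *Cd40* and *Tnfrsf1b*, among the 6 called higher, are signalling receptors too. *Tnfrsf1b*, which encodes a TNF receptor, averaged 3.92 RPKM in RANK+ and 0.824 RPKM in CCL21+ TECs (log2 fold change 2.12). *Ltbr*, the lymphotoxin beta receptor, was at 11.5 RPKM on average in RANK+ TECs against 43.3 in CCL21+ TECs (log2 fold change -2.04, SE 0.12, adjusted p = 1.36e-06 by edgeR). *Tnfrsf1a*, a TNF receptor, was at 11.6 against 41.3 RPKM (log2 fold change -1.94, SE 0.11, adjusted p = 1.29e-06 by edgeR). Both were also called lower against double-negative TECs. *Tnfsf11*, the gene of RANK ligand, was at 0.484, 0.428, and 0.565 RPKM in RANK+ TECs and at most 0.137 RPKM elsewhere, under the 1 RPKM needed for a call.

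*Tnfrsf11a* and *Cd40*, a further TNF family receptor that acts on medullary TECs, were also called higher in CCL21+ than in double-negative TECs. *Cd40* was at 10.7, 9.55, and 8.45 RPKM in CCL21+ TECs and at 3.84 and 5.05 RPKM in double-negative TECs (log2 fold change 1.12, SE 0.22, adjusted p = 0.00990 by edgeR), and it was highest in RANK+ TECs, between 23.7 and 42.97 RPKM. *Tnfrsf11a* is linked to the Venus reporter used in the sort, and its difference between RANK+ and RANK- cells is no finding.

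Among 11 adaptors and ubiquitin ligases other than *Traf1* and *Traf6*, 1 was called higher and 3 lower in RANK+ than in CCL21+ TECs, 36.4% of the list and near the 30.8% of all genes. *Birc3*, which encodes the ligase cIAP2, was higher at 66.2, 50.6, and 53.0 RPKM against 21.9, 19.8, and 22.4 RPKM (log2 fold change 1.28, SE 0.11, adjusted p = 8.86e-06 by edgeR). *Traf3*, whose product holds NIK for degradation, was lower at 11.4, 10.4, and 8.99 RPKM against 19.5, 19.5, and 18.9 RPKM (log2 fold change -1.04, SE 0.11, adjusted p = 4.14e-05 by edgeR). The groups overlapped in neither gene. *Traf5* and *Rnf31*, the latter a subunit of the linear ubiquitin ligase, were lower with log2 fold changes of -1.82 and -0.81. *Traf2* passed the limit against double-negative TECs (log2 fold change 0.66) and not against CCL21+ TECs (log2 fold change 0.41).

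Of 10 kinases and kinase partners other than *Map3k14*, 1 was higher and 2 were lower in RANK+ than in CCL21+ TECs, a share close to the 30.8% of all genes. *Ikbke*, a kinase related to the IkB kinases, was higher with a log2 fold change of 1.63 (SE 0.17, adjusted p = 4.32e-05 by edgeR). *Tab1*, a partner of the kinase TAK1, was at 6.80, 5.01, and 6.19 RPKM in RANK+ TECs against 23.1, 18.8, and 21.7 RPKM in CCL21+ TECs, a log2 fold change of -1.95 (SE 0.15, adjusted p = 6.14e-06 by edgeR). *Map3k3* was lower by 0.97 on the same scale. The 3 genes of the IkB kinase complex (*Chuk*, *Ikbkb*, and *Ikbkg*) had log2 fold changes of 0.52, 0.43, and -0.43, all short of 1.5-fold (*Chuk* passed it without CCL21+ replicate 1, at 0.64), and *Ikbkb* was called higher against double-negative TECs (log2 fold change 0.91).

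The other IkB proteins and negative regulators were split in direction. Of 5 further IkB genes, *Nfkbie* (log2 fold change 0.62) and *Nfkbid* (1.67) were called higher and *Nfkbiz* (-1.13) and *Bcl3* (-0.62) lower in RANK+ than in CCL21+ TECs, a comparison in which 30.8% of all genes were called. *Nfkbie*, which encodes IkB-epsilon, stood in the same group order as *Nfkbia*, at 64.9, 60.2, and 60.3 RPKM in RANK+ TECs, 43.1, 34.3, and 33.5 RPKM in CCL21+ TECs, and 17.2 and 19.9 RPKM in double-negative TECs. Of 9 negative regulators, *Tnip1* and *Tnip2*, whose products bind A20, were higher with log2 fold changes of 0.90 and 0.60, and *N4bp1* and *Otud7b* were lower with log2 fold changes of -1.24 and -1.03, so that 44.4% of that list was called. *Tnip1* was at 117, 57.4, and 66.65 RPKM in RANK+ TECs, with replicate 1 far above the other libraries, and between 36.3 and 42.8 RPKM in CCL21+ TECs. Without RANK+ replicate 1 the log2 fold change of *Tnip1* was 0.59 (SE 0.14, adjusted p = 0.00679 by edgeR), just past the limit, and that of *Tnip2* was 0.41 and no longer called.

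**Figure D4:**
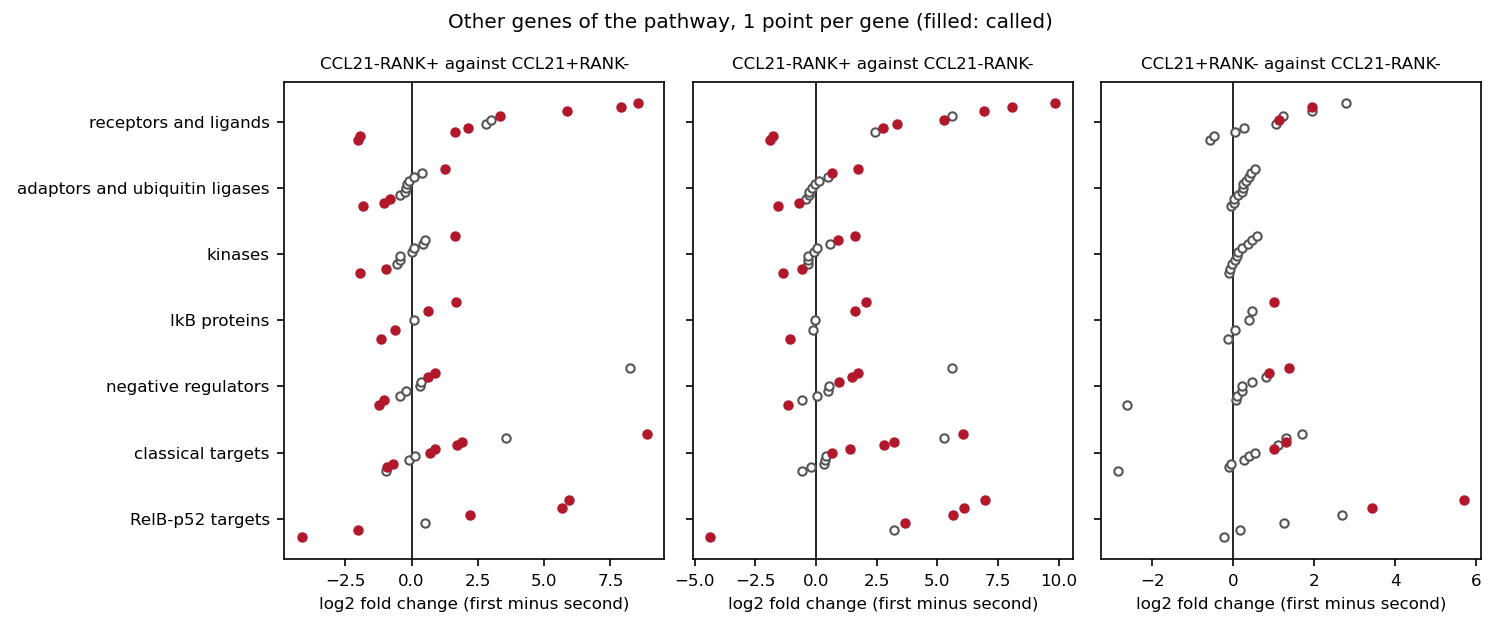
Log2 fold change (horizontal axes, first group minus second) of the 62 tested genes of the pathway in 7 lists, 1 point per gene, from edgeR, filled where called. In the left panel 20 filled points lie to the right of 0 and 15 to the left, and in the right panel all 9 lie to the right. The horizontal scales differ between panels.

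Among genes known as targets of the classical arm, 5 of 11 tested were called higher and 2 lower in RANK+ than in CCL21+ TECs, against 15.4% of all genes in each direction. *Gadd45b*, a stress response gene, was at 49.96, 23.7, and 26.4 RPKM in RANK+ TECs against 12.0, 6.01, and 6.26 RPKM in CCL21+ TECs (log2 fold change 1.90, SE 0.34, adjusted p = 0.00119 by edgeR). *Ccl20*, a chemokine gene, was at 4.95, 1.85, and 2.30 RPKM in RANK+ TECs and at most 0.0491 RPKM elsewhere. In both genes replicate 1 was the highest RANK+ library, and both were still called without it, *Gadd45b* with a log2 fold change of 1.55 and *Ccl20* with a mean of 2.08 RPKM in RANK+ TECs. *Ccl5* was higher with a log2 fold change of 1.70 (SE 0.59, adjusted p = 0.0330 by edgeR), with 1.48 RPKM in its lowest RANK+ library and 1.36 in its highest CCL21+ library. Its log2 fold change without RANK+ replicate 1 was 1.07, with an adjusted p of 0.149 by edgeR. *Bcl2l1*, a survival gene, had a log2 fold change of 0.71, and of 0.57 without that library, under the limit. *Vcam1* and *Tnfaip2* were lower with log2 fold changes of -0.70 and -0.93. Against double-negative TECs, 5 of the 11 were called higher in RANK+ TECs, against 14.4% of all genes, and 6 were not called, among which *Vcam1* and *Tnfaip2* had log2 fold changes of 0.32 and 0.37. These 2 genes were called higher in CCL21+ than in double-negative TECs, against 4.35% of all genes.

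Of 6 genes known as targets of RelB-p52, 3 were called higher and 2 lower in RANK+ than in CCL21+ TECs, where 15.4% of all genes were called in each direction. *Madcam1*, an adhesion molecule gene, was at 25.1, 19.6, and 24.8 RPKM in RANK+ TECs and at most 0.4995 RPKM in CCL21+ TECs (log2 fold change 5.95, SE 0.38, adjusted p = 2.01e-06 by edgeR). *Cxcl13* and *Ccl19*, genes of lymphoid chemokines, were higher too, *Cxcl13* with a log2 fold change of 5.68. *Cxcl12* was lower, at 3.43, 7.87, and 4.25 RPKM against 87.0, 82.3, and 86.9 RPKM (log2 fold change -4.14, SE 0.32, adjusted p = 5.00e-06 by edgeR). The 2 lower genes thus included *Cxcl12*, which is abundant in cortical TECs and mesenchyme, and *Ccl21a*, the gene that carries the sorting reporter.

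*Ccl19* had the same order of groups as *Nfkb2* and *Relb*. It was at 29.7, 8.44, and 14.4 RPKM in RANK+ TECs, 4.41, 2.73, and 3.14 RPKM in CCL21+ TECs, and 0.308 and 0.322 RPKM in double-negative TECs. Against CCL21+ TECs the log2 fold change was 2.202, and without RANK+ replicate 1, its highest library, it was 1.65 and still called. The difference between CCL21+ and double-negative TECs was called as well (log2 fold change 3.44, SE 0.53, adjusted p = 0.00332 by edgeR).

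To describe which transcripts had patterns most like each subunit, log2 counts scaled to the TMM-normalized library total (log2 CPM) were used. They were correlated over the 8 libraries against 10846 genes. The 8 points are 3 sorted groups, so these coefficients mostly order the groups, and they are given as a description. *Nfkb2* was most like *Sp6* (Pearson r = 0.996) and *Skint4* (0.996), and *Relb* was most like *Xylt1* (0.995) and *Sh3tc2* (0.993). *Sh3tc2* ran from 59.3 to 66.6 RPKM in RANK+ TECs, from 10.8 to 12.7 in CCL21+ TECs, and from 2.05 to 2.61 in double-negative TECs. *Nfkb1* was most like *Hip1* (0.997) and *Taok3* (0.995), and *Rela* was most like *Islr* (0.996) and *Akt2* (0.996). *Rel* had looser neighbours, *Moxd1* (0.970) and *Pth1r* (0.965).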

How the data were processed

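RNA sequencing of 8 libraries of sorted embryonic TECs was used. The authors deposited 1 table of RSEM expected counts for 55450 genes, neither normalized nor filtered. The submitters' processing notes name mm10, bcl2fastq 2.20, Trimmomatic, STAR 2.5.1, and RSEM 1.3.1. The methods name CLC Genomics Workbench and a TruSeq Stranded kit, and the labels a NEBNext Ultra II Directional kit, so the strand setting of the counts is unknown. All gene identifiers matched GENCODE release M21, which gave positions and exon lengths for RPKM. Counts were rounded and tested in edgeR 4.0.16 (R 4.3.3) with TMM normalization, its default filter, and the quasi-likelihood test in 1 fit of all 8 libraries, with Benjamini-Hochberg adjustment over 21451 genes (common biological coefficient of variation 0.326). Calls were made as stated in the results above. Each pair of replicates differed beyond sampling noise, so every library counted as 1 replicate. *Gm26917* and *Gm42418* took 6.89% to 19.4% and 1.47% to 10.7% of the counts, which lowers the RPKM of all other genes.

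The 10 genes, the 7 pathway lists, and the 7 marker lists with 49 genes were chosen with earlier results of these data known. Genes named were the 10, for each pathway list up to 3 called genes with the largest fold change in each direction, *Tnfrsf11a*, *Ccl21a*, and *Tnfsf11*, for each subunit the 2 genes with the highest correlation (mean CPM of at least 5), and the leading genes of the marker lists. Described beside them, chosen after their values were seen, were the genes of the IkB kinase complex, *Traf2*, *Tnfrsf1b*, and *Bcl2l1*. So were the further values of *Cd40* and *Sh3tc2*, and the epithelial markers. The markers *Ptprc*, *Pdgfra*, and *Twist1* were added in the same way. Alternatives were DESeq2 1.42.0 (size factors, Wald test), upper-quartile scaling, other filters and thresholds, a fit of the 2 groups compared alone, a block for the replicate number, a test against 1.5-fold, counts without *Gm26917* and *Gm42418*, and leaving out each library. A further marker gene is not reported here. A run of the test on simulated data is not reported here, and no result above rests on it. Figures were drawn with matplotlib 3.10.9.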

Additional observations from a re-analysis of the deposited data

How the results depend on the processing

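In 18 alternative analyses, *Nfkb1*, *Nfkbia*, *Map3k14*, *Traf1*, *Traf6*, and *Tnfaip3* were called between RANK+ and CCL21+ TECs in each. The call of *Rel* was lost with DESeq2 size factors (log2 fold change -0.54), upper-quartile scaling (-0.55), the DESeq2 Wald test (-0.54), no filter (-0.58), at least 10 counts in every library (-0.49), a test against 1.5-fold, and without any 1 of 4 libraries (CCL21+ replicates 2 and 3, RANK+ replicates 2 and 3, -0.58 to -0.55). The test against 1.5-fold also lost *Nfkb2* in this comparison and *Map3k14* against double-negative TECs, and left 676 genes in all between CCL21+ and double-negative TECs instead of 1720. *Tnfaip3* between RANK+ and double-negative TECs reversed without double-negative replicate 2 (leave-one-out range -0.00895 to 0.21). With the adjusted p alone, 11516 and 10501 genes passed between RANK+ TECs and CCL21+ or double-negative TECs, and 3 of the 10 genes and 15 pathway genes passed between CCL21+ and double-negative TECs. Leaving out 1 library gave 7 to 8 called genes of 10, 6 to 7, and 0 to 1 in the 3 comparisons, and 657 to 2066 called genes in all between CCL21+ and double-negative TECs (772 and 657 without double-negative replicates 1 and 2). DESeq2 size factors moved the median log2 fold change of all genes between RANK+ and double-negative TECs from 0.06 to 0.20, and without *Gm26917* and *Gm42418* in the totals the RPKM values were higher in every group.

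With the replicate number as a block, 8, 7, and 1 of the 10 genes were called, as without it, and 6616, 6324, and 1913 genes in all. Deviations of CCL21+ and RANK+ libraries with the same number correlated at 0.126, 0.0485, and 0.0707. Their mean was 0.0816, against -0.0408 for CCL21+ and RANK+ libraries with different numbers. Same-numbered pairs with double-negative libraries were at -0.117 to -0.0411. The deviations of only 2 libraries mirror each other, so these values cannot tell whether numbers are pairs. CCL21+ replicate 2, for example, correlated at 0.117 with double-negative replicate 1 and at -0.117 with replicate 2. The labels do not state a pairing, and the numbers were not taken as pairs. The lowest count of any of the 10 genes was 148, for *Traf1* in a double-negative library.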
